A study of Mus musculus with 2 samples.

Results

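The clustered protocadherin genes are 57 of the 21755 protein-coding genes annotated on chromosomes 1 to 19 and X of the mouse. They were taken by symbol, as the protein-coding genes of GENCODE M21 whose names begin with Pcdha, Pcdhb or Pcdhg in an interval of 1000 kb on chromosome 18 (mm10). The first starts at base 36930184 and the last ends at base 37841873. They comprise 14 alpha genes, 22 beta genes and 21 gamma genes, all transcribed from the plus strand. ChIP-seq, the sequencing of DNA recovered with an antibody against a bound protein, was used to locate CTCF, a zinc-finger protein, at these genes in newborn mouse intestine. There was 1 group of 2 replicates, from mice of strain B6NCrl at postnatal day 0, with no other genotype, treatment or age. Each library came from powdered intestines pooled over several dissections, the labels give both replicates the same biosample, and sex was not recorded. The spread between the replicates may therefore be technical.

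Clustered protocadherins are cell-surface adhesion proteins best known from neurons, where each cell uses a small choice of them as an identity code that lets its branches recognise each other. In the alpha and gamma clusters each variable exon has its own promoter and is spliced to shared constant exons, whereas each beta gene is a single exon. CTCF bound at the variable promoters and at distant enhancers is known to loop these together with cohesin, and the direction of the CTCF motif matters for which sites meet. The C-type genes (Pcdhac1, Pcdhac2, Pcdhgc3, Pcdhgc4 and Pcdhgc5) stand at the ends of the alpha and gamma arrays, and in neurons they are mostly regulated apart from the other isoforms. Intestine holds enteric neurons among many other cells. In a whole tissue, a site bound in few cells and a site bound weakly in many cannot be told apart, and these data do not measure expression.

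A gene was counted as bound when the summit of a CTCF peak lay within 2 kb of the start of its variable exon. The smallest distance between neighbouring starts was 4131 bases, so no summit was counted for more than 1 member. Neighbouring members still share sequence by descent, so they are no replicates of each other. No test was made, because the study has 1 condition. The peak signal is the enrichment value that the authors deposited for each peak, with a normalization not stated, and it serves here as a description and a rank within each list. The list called optimal holds 73465 peaks that passed a filter on reproducibility between replicates (IDR), and its median signal was 76.0. The pooled list and the lists of replicates 1 and 2 hold 300000 peaks each, most of them weak, and a percentile in such a list is the share of its peaks with a lower signal. The optimal signals are on the scale of the pooled list, so values of the optimal and the replicate lists are compared only as ranks. No control track was used here, and the lists give no read depth.

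CTCF was found at the start of most clustered protocadherin genes, but mostly by peaks in the lower part of the list. Of the 57 members 44 (77.2%) were bound in the optimal list, against 44.5% of all protein-coding genes. The alpha genes were bound in 9 of 14 cases (64.3%), the beta genes in 17 of 22 (77.3%) and the gamma genes in 18 of 21 (85.7%). The strongest summit of a bound member had a median signal of 53.3, against 84.0 for the other 9636 bound protein-coding genes. Counting only peaks above the median signal of the list left 15 members bound (26.3%), against 23.6% of all protein-coding genes, and 13 of those 15 were gamma genes.

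The longer lists held peaks at nearly all members. In the pooled list 56 members were bound, against 73.7% of all protein-coding genes. The replicate 1 list held 56 members and the replicate 2 list 55, with 55 in both. The share of all protein-coding genes in the replicate lists was not counted. Pcdhb1, the member nearest the alpha cluster among the beta genes, had no summit in any list. The conservative list, a second list filtered by IDR, held 41 members, against 42.8% of all protein-coding genes. It shared 38 members with the optimal list, which is 86.4% of the optimal and 92.7% of the conservative members. Between the IDR lists, Pcdha6, Pcdhb2 and Pcdhga8 were bound in the conservative list alone. Pcdha5, Pcdhb7, Pcdhb8, Pcdhb18, Pcdhb22 and Pcdhgb2 were bound in the optimal list alone. All of these genes were bound in the pooled list as well.

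**Figure D1:**
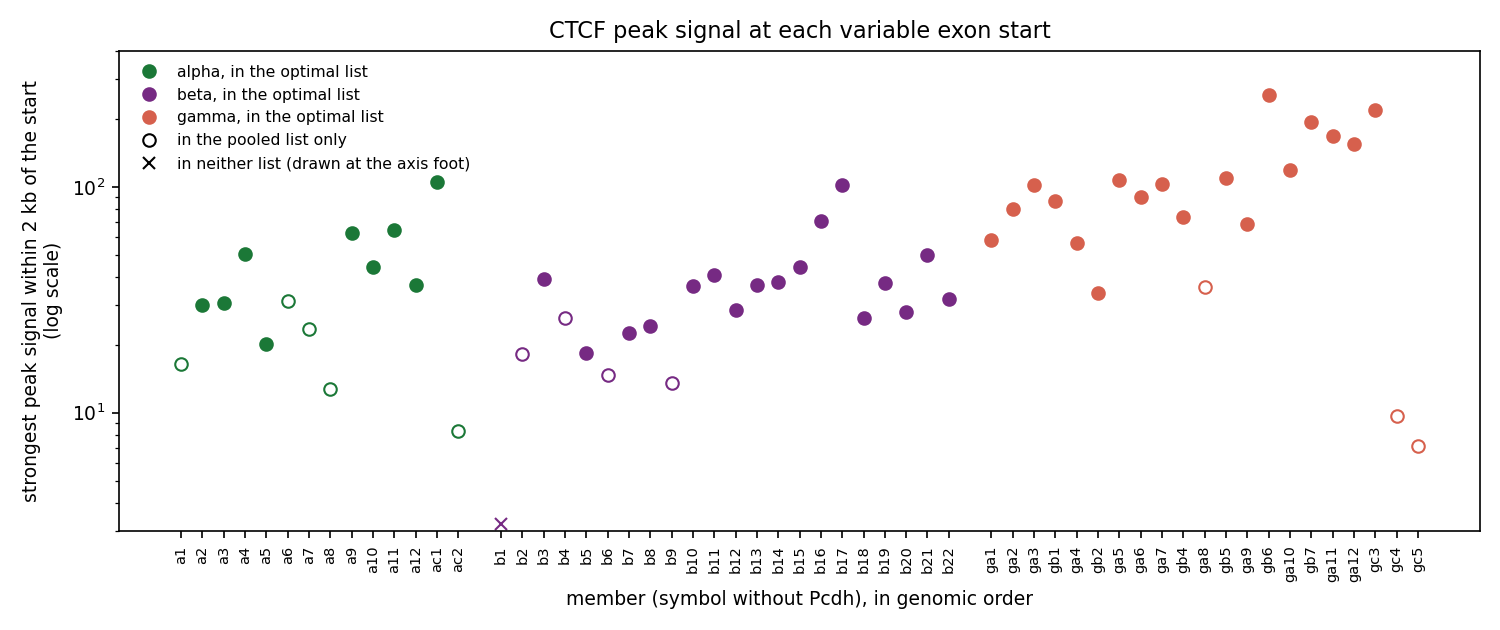
Strongest CTCF peak signal within 2 kb of the start of each member, on a log axis, with members in genomic order within the alpha, beta and gamma subclusters. Filled points are in the optimal list, open points in the pooled but not the optimal list, and the cross marks Pcdhb1, which is in neither. The gamma points reach 256, and the alpha and beta points stay at or below 105.

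The gamma promoters carried the strongest CTCF peaks of the gene family. Their strongest summits had a median signal of 102 (33.7 to 256) over 18 bound genes, against 44.3 (20.1 to 105) over 9 alpha genes and 36.8 (18.3 to 102) over 17 beta genes. Of the bound gamma genes 13 lay above the median of the list, against 1 alpha gene and 1 beta gene. Peaks of 310 bases, the width of 97.1% of optimal peaks below the median signal and of 4.30% above it, were found at 5 of 18 bound gamma genes, 8 of 9 alpha genes and 16 of 17 beta genes. The gamma genes also ranked highest in each replicate. In the replicate 1 list the bound genes had a median percentile of 85.3 for alpha, 81.1 for beta and 89.0 for gamma. In the replicate 2 list it was 81.6 for alpha, 82.1 for beta and 89.7 for gamma, so the alpha and beta genes changed places between replicates while the gamma genes stayed on top. The ranges overlapped in both lists.

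**Figure D2:**
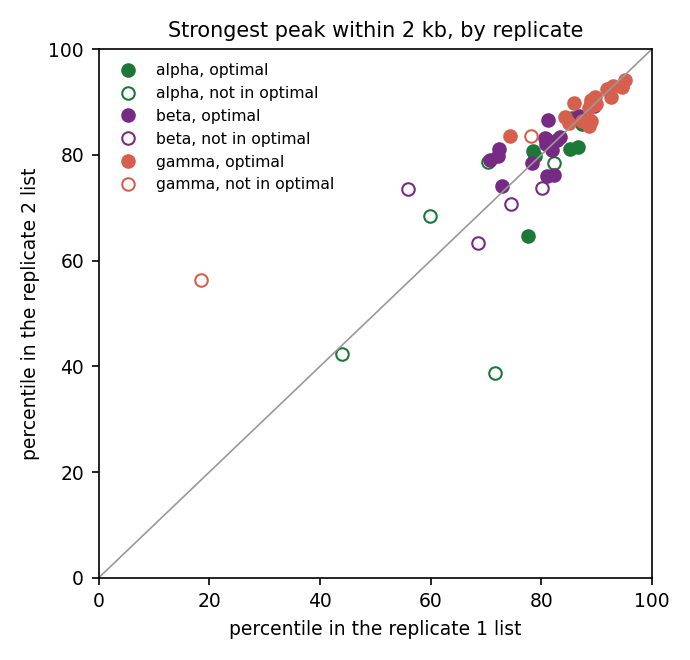
Percentile of the strongest peak within 2 kb of each member in the replicate 1 list (horizontal) and the replicate 2 list (vertical), for the 55 members with a peak in both. The strongest peak of a member need not be the same site in both lists. Filled points are bound in the optimal list, open points are not, and the line marks equal percentiles. The gamma points crowd the upper right corner, and the 3 points farthest from the line are open.

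Pcdhgb6, a B-type gamma isoform, had the strongest peak of any member. Its peak (chromosome 18, 37741897 to 37742142) had a signal of 256 in the optimal list, 134 in replicate 1 and 121 in replicate 2, which was the 95.2 percentile of the replicate 1 list and the 94.2 percentile of the replicate 2 list. Pcdhgc3, the first of the C-type gamma isoforms, followed with a signal of 219, with 122 in replicate 1 and 94.5 in replicate 2. Pcdhgb7 had 193, with 94.0 in replicate 1 and 97.5 in replicate 2. These 3 genes, Pcdhga11 (168) and Pcdhga12 (155) were the 5 members above the 90th percentile in both replicates. No alpha or beta gene was among them. The weakest bound gamma gene was Pcdhgb2 with 33.7, and its rank differed most among bound gamma genes, at the 74.3 percentile in replicate 1 and the 83.6 percentile in replicate 2.

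The A-type and B-type gamma genes had similar medians. The A-type genes were bound in 11 of 12 cases, with a median signal of 102 (56.3 to 168), and the B-type genes in 6 of 6, with a median of 98.1 (33.7 to 256). Among bound genes the signal tended to be higher at later gamma genes, with a Spearman rho of 0.75 between genomic order and signal over 18 gamma genes, 0.65 over 9 alpha genes and 0.32 over 17 beta genes. The bound set leaves out the last alpha gene and the last 2 gamma genes, which had weak peaks. Over all members with a pooled peak the rho was 0.29 for 14 alpha and 0.25 for 21 gamma genes, so there the trend did not reach the constant exons. For 21 beta genes the rho was 0.52, higher than over the bound beta genes. These points share libraries and descent and are given as a description. Pcdhgb8, annotated as a polymorphic pseudogene and therefore not a member, lies in the same stretch and had a signal of 168 at -144 bases from its start.

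The C-type genes were either bound above the median signal of the optimal list or hardly bound. As background, most clustered protocadherin promoters share a conserved sequence element, and Pcdhac2, Pcdhb1, Pcdhgc4 and Pcdhgc5 are known to lack it. Pcdhac1 had the strongest alpha peak, with a signal of 105, with 49.4 in replicate 1 and 53.8 in replicate 2. This was the 57.9 percentile of the optimal list. Pcdhgc3 was the second strongest gamma gene. The other 3 were outside the optimal list. Pcdhac2 had a pooled signal of 8.27 and 3.89 in replicate 2 at the same position, while its peak in replicate 1 (3.86) lay elsewhere, at -1744 bases from the start. Pcdhgc4 had 9.65, with 2.91 in replicate 1 and 4.96 in replicate 2. Pcdhgc5 had 7.11, with 5.08 in replicate 1 and no summit in replicate 2. Apart from Pcdhb1 these were the 3 weakest members of the family in the pooled list, so CTCF was weakest at the last alpha gene, the first beta gene and the last 2 gamma genes.

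Among the alpha genes the strongest after Pcdhac1 were Pcdha11 and Pcdha9. Pcdha11 had 64.2, with 34.9 in replicate 1 and 29.5 in replicate 2, and Pcdha9 had 62.1, with 27.5 in replicate 1 and 34.9 in replicate 2. The alpha genes outside the optimal list were Pcdha1, Pcdha6, Pcdha7, Pcdha8 and Pcdhac2. Among the beta genes Pcdhb17 led with 102, with 50.4 in replicate 1 and 50.2 in replicate 2. Pcdhb16 followed with 70.4, with 32.6 in replicate 1 and 37.2 in replicate 2. Pcdhb21 had 49.7, with 16.6 in replicate 1 and 32.4 in replicate 2, so the replicates placed it less evenly than the other leading genes. The beta genes outside the optimal list were Pcdhb1, Pcdhb2, Pcdhb4, Pcdhb6 and Pcdhb9, and the gamma genes were Pcdhga8, Pcdhgc4 and Pcdhgc5.

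Bound and unbound members formed a continuum rather than separate classes. The 12 members with a pooled peak that were unbound in the optimal list had signals of 7.11 to 35.9, and the 44 bound members had signals of 18.3 to 256. The highest unbound values were 35.9 at Pcdhga8, 31.3 at Pcdha6 and 26.3 at Pcdhb4, all above the 18.3 of Pcdhb5, the weakest bound member. Pcdhga8 and Pcdha6 were bound in the conservative list. Across the 55 members with a peak in both replicates, the percentiles had a Spearman rho of 0.88. Within a subcluster it was 0.85 for 14 alpha, 0.70 for 21 beta and 0.91 for 20 gamma genes. The strongest peak within 2 kb was not always the same site in both replicates, as at Pcdha6 and Pcdhac2. Repeated sequence, to which reads may be hard to assign, did not separate bound from unbound members as a whole. Within 500 bases of the start, a median of 98.5% of the 31-base words were unique in the genome at bound members (70.5 to 100) and 93.5% at unbound members (71.0 to 100). Over 56 members the rho of this share with the pooled signal was 0.04, and it was 0.55 over 21 beta genes, -0.26 over 14 alpha genes and -0.23 over 21 gamma genes. How the authors treated reads with several matches was not stated in the labels or headers, and the part of repeats in the peak signal was not tested.

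The position of the summit was nearly the same at all bound promoters. Every one of the 44 bound members had a summit between 262 and 93 bases before its start codon, with a median of -220 over the promoter summits. The median was -172 bases at alpha genes, -229 at beta genes and -223.5 at gamma genes. A window of 350 to 50 bases before the start codon, chosen after these positions were seen, held an optimal summit at 44 of 57 members. It held one at 9.99% of the other protein-coding genes, bound or not. The share among bound genes alone was not counted. Of the 44 strongest summits 38 lay within 200 bases upstream of the annotated transcription start. Pcdhb17, Pcdhb22 and Pcdhga12 seemed to differ, with the summit 135, 394 and 320 bases after the annotated start. Measured from the start codon, the same summits lay at -229, -216 and -217 bases, in the range of their neighbours. For these 3 genes the annotated start lies further upstream of the start codon, so the start codon gave the tighter reference point.

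In the pooled list, a second CTCF site inside the variable exon set the alpha genes apart from the rest of the family. In the pooled list 10 of 14 alpha genes had a summit 350 to 650 bases after the start codon, and 7 of them had it in both replicates. The same window held a pooled summit at 1 of 22 beta genes, 1 of 21 gamma genes and 13.1% of the other protein-coding genes, and 6.12% of those other genes had it in both replicates. The window before the start codon, at 350 to 50 bases, held a pooled summit at 13 alpha, 21 beta and 19 gamma genes, against 22.4% of the other protein-coding genes. In the optimal list the exon window held a summit at only 2 alpha genes, 0 beta genes and 1 gamma gene. The share among the other protein-coding genes was 3.52% in that list. Both windows were chosen after the summit positions had been seen. Pcdha4 had 50.2 in its exon and 17.8 at its promoter in the optimal list, and Pcdha12 had 36.8 in its exon and 25.3 at its promoter. These 2 and Pcdhgc3 were the members with more than 1 optimal summit within 2 kb.

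The exon summit was the higher of the pair in 4 of the 9 alpha genes that had both. Besides Pcdha4 and Pcdha12 these were Pcdha6, with a pooled signal of 31.3 in the exon and 26.3 at the promoter, and Pcdha7, with 23.4 in the exon and 8.96 at the promoter. At Pcdha6 the replicates disagreed, with the exon at the 82.4 percentile and the promoter at the 77.6 percentile in replicate 1, and the exon at the 78.0 and the promoter at the 78.4 percentile in replicate 2. At Pcdha12 the exon was higher in both, with 16.7 in the exon and 13.3 at the promoter in replicate 1, and 19.4 in the exon and 9.58 at the promoter in replicate 2. Pcdha7 had no promoter summit in replicate 1, and in replicate 2 it had 13.8 in the exon and 5.30 at the promoter. Pcdha8 had an exon summit alone, with a signal of 12.7. In replicate 1 Pcdha4 had 31.7 in the exon and 4.52 at the promoter, and in replicate 2 it had 18.0 in the exon and 15.2 at the promoter. The exon of Pcdha4 was thus higher in both libraries but by very different amounts. At the other alpha genes with an exon summit, Pcdha1, Pcdha5, Pcdha9, Pcdha10 and Pcdha11, the pooled exon signal was 4.67 to 10.5, from the 8.53 percentile of the pooled list at Pcdha11 to the 62.3 percentile at Pcdha5. Pcdha2, Pcdha3, Pcdhac1 and Pcdhac2 had none.

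**Figure D3:**
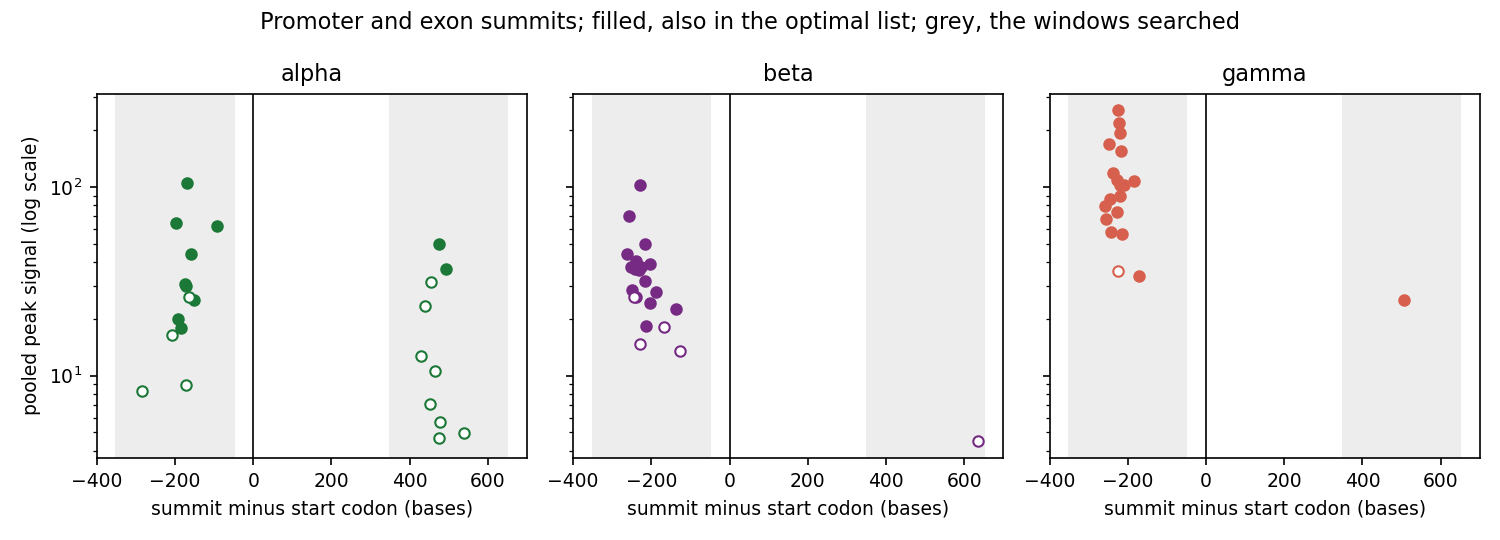
Position of the strongest pooled summit in each of the windows before and after the start codon (horizontal, bases from the start codon) and its signal (vertical, log axis), for alpha, beta and gamma genes. Filled points are also in the optimal list, and the grey bands are the windows searched. Promoter summits fill the left band in all 3 panels, and exon summits appear at 10 alpha genes against 1 beta gene and 1 gamma gene.

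The strength of the CTCF motif did not follow the strength of the peak. A 19-base matrix was trained on the 5000 strongest optimal peaks of other, even-numbered chromosomes. Its consensus, with a letter wherever 1 base holds at least 60% of the training sites and N elsewhere, was NNNCCACNAGNNGGCNNNN. Both strands were searched, and a match was called within 100 bases of a summit at the score that 5% of flanking windows reached (9.83, in log2 odds). The strongest summit had a called motif at 8 of 9 bound alpha genes and 17 of 17 beta genes, but at 2 of 18 gamma genes, which were Pcdhga3 (score 11.5) and Pcdhga12 (14.7). Of all optimal peaks on odd-numbered chromosomes and X, 75.3% had a called motif. Among such peaks in the signal range of the gamma genes the share was 76.5%, with a median score of 14.3. The median score at the bound promoters was 12.2 for alpha, 13.0 for beta and 4.24 for gamma genes. The subcluster with the strongest peaks therefore held the weakest matches.

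The 3 strongest gamma promoters were among those with no called motif. Pcdhgb6 scored 3.22, Pcdhgc3 scored 5.26 and Pcdhgb7 scored 6.25. By the letters fixed in the matrix, the best match at a gamma promoter held a median of 5 of 9, against 7 of 9 at alpha and beta promoters and at the peaks of other chromosomes. The best match, whether or not it reached the threshold, lay on the strand of the gene at 15 of 18 gamma promoters. At alpha promoters it did so in 9 of 9 cases and at beta promoters in 17 of 17. Only 12 of the 18 gamma matches lay within 30 bases of the summit, 11 of them on the strand of the gene. The strand of such best matches at other peaks was not counted. Over the 44 bound members the rho between motif score and signal was -0.46. Within a subcluster it was 0.00 for 9 alpha genes, 0.03 for 17 beta genes and 0.40 for 18 gamma genes, so the negative value appeared only when the subclusters were pooled. A low score says only that the letters of this matrix are not there, and draws nothing about the protein that was bound.

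**Figure D4:**
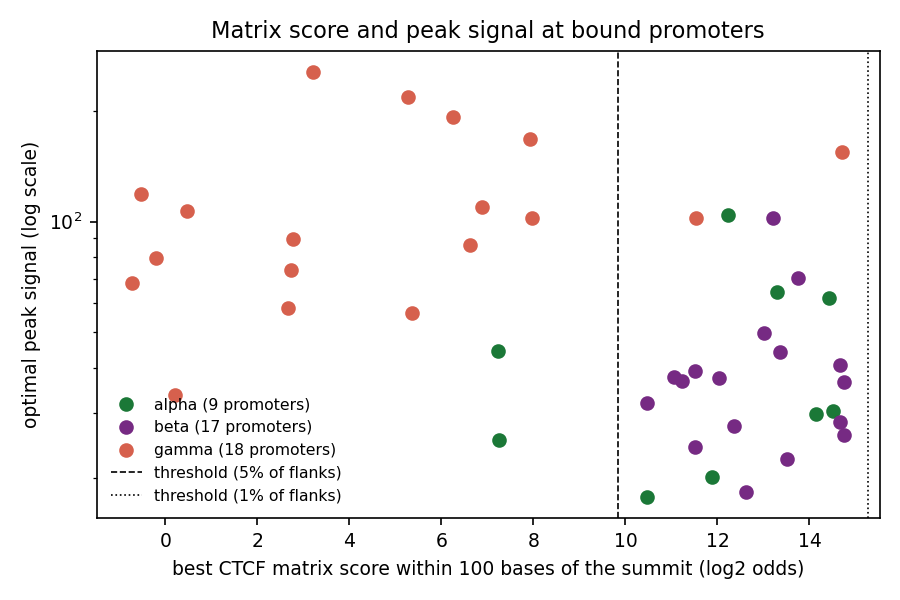
Best CTCF matrix score within 100 bases of the promoter summit (horizontal, log2 odds) and optimal peak signal (vertical, log axis) for the 44 bound promoters, coloured by subcluster. The dashed line is the score that 5% of flanking windows reach (9.83) and the dotted line the score that 1% reach (15.3). Beta points all lie to the right of the dashed line, and 16 of 18 gamma points lie to its left at signals up to 256.

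Motif matches were present at alpha and beta promoters outside the optimal list too. From 500 bases before to 100 bases after the start, a motif was called at 11 of 14 alpha, 19 of 22 beta and 1 of 21 gamma genes, and all 31 lay on the strand of the gene. Among the 21698 other protein-coding genes 22.4% had one, and 55.8% of those were on the strand of the gene. Of the 13 members not bound in the optimal list, 4 alpha and 4 beta genes carried such a motif. Each of these genes had a summit within 2 kb in the pooled list, but not always at the promoter. At Pcdha8 the strongest lay in the exon, 428 bases after the start codon. Its window before the start codon held no summit in the optimal, pooled or replicate lists. At Pcdha6 and Pcdha7 the strongest pooled summit was also in the exon, with a weaker one at the promoter. At the alpha promoters Pcdha10 and Pcdha12 were bound without a called promoter motif, with scores of 7.23 and 7.25. In the exon, from 200 to 1200 bases after the start codon, a motif was called at 11 of 14 alpha genes. These were Pcdha1 and Pcdha3 to Pcdha12, all on the strand of the gene and all 453 to 552 bases after the start codon. It was called at 1 beta gene (Pcdhb1, on the opposite strand) and 1 gamma gene (Pcdhgc5). Among other protein-coding genes 23.4% had a motif in this window, 49.1% of them on the strand of the gene. Pcdha3 had the exon motif (score 10.4). It had no summit 350 to 650 bases after the start codon in the optimal, pooled or replicate lists.

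Called motifs lay along the genes over the alpha and beta arrays and against them after the alpha and gamma arrays. The optimal list held 61 summits in the 1000 kb, or 6.10 per 100 kb, against 2.79 per 100 kb over chromosomes 1 to 19 and X. There were 11 over the alpha variable exons (5.04 per 100 kb), 17 over the beta genes (6.50 per 100 kb), 23 over the gamma variable exons (14.2 per 100 kb) and 5 in the stretch after the gamma genes (8.60 per 100 kb). A motif was called at 37 of the 61, with 28 on the plus strand, along the genes, and 9 on the minus strand. At the stricter score that 1% of flanking windows reach, 2 were on the plus strand and 7 on the minus strand. All 9 motifs of the alpha variable exons and all 17 of the beta genes were on the plus strand. The alpha constant exons held no optimal summit.

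The minus-strand motifs lay beyond the last variable exons or in the gamma array. In the gap between alpha and beta, 2 summits with minus-strand motifs lay 29.8 and 30.8 kb after the last alpha base. Their signals were 60.6 and 209, and the stronger one (chromosome 18, 37218300 to 37218530) exceeded every alpha and beta promoter. The mouse alpha cluster is known to have an enhancer, HS5-1, downstream of its constant exons. The annotation used does not mark it, so these summits were not matched to it. In the last constant exon of the gamma genes 1 summit had a signal of 175 and a minus-strand motif with a score of 24.0. After the gamma genes, inside Diaph1, which encodes a regulator of actin filaments, 5 summits had signals of 165 to 541. Of these 4 had a minus-strand motif and the other had none. The strongest of the interval (541, chromosome 18, 37852102 to 37852513) lay 10.4 kb after the last gamma base. The remaining 2 minus-strand motifs lay at weak summits among the gamma genes, one 2257 bases after the start of Pcdhga8 (19.6) and one 6.57 kb after the start of Pcdhga12 (32.1).

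**Figure D5:**
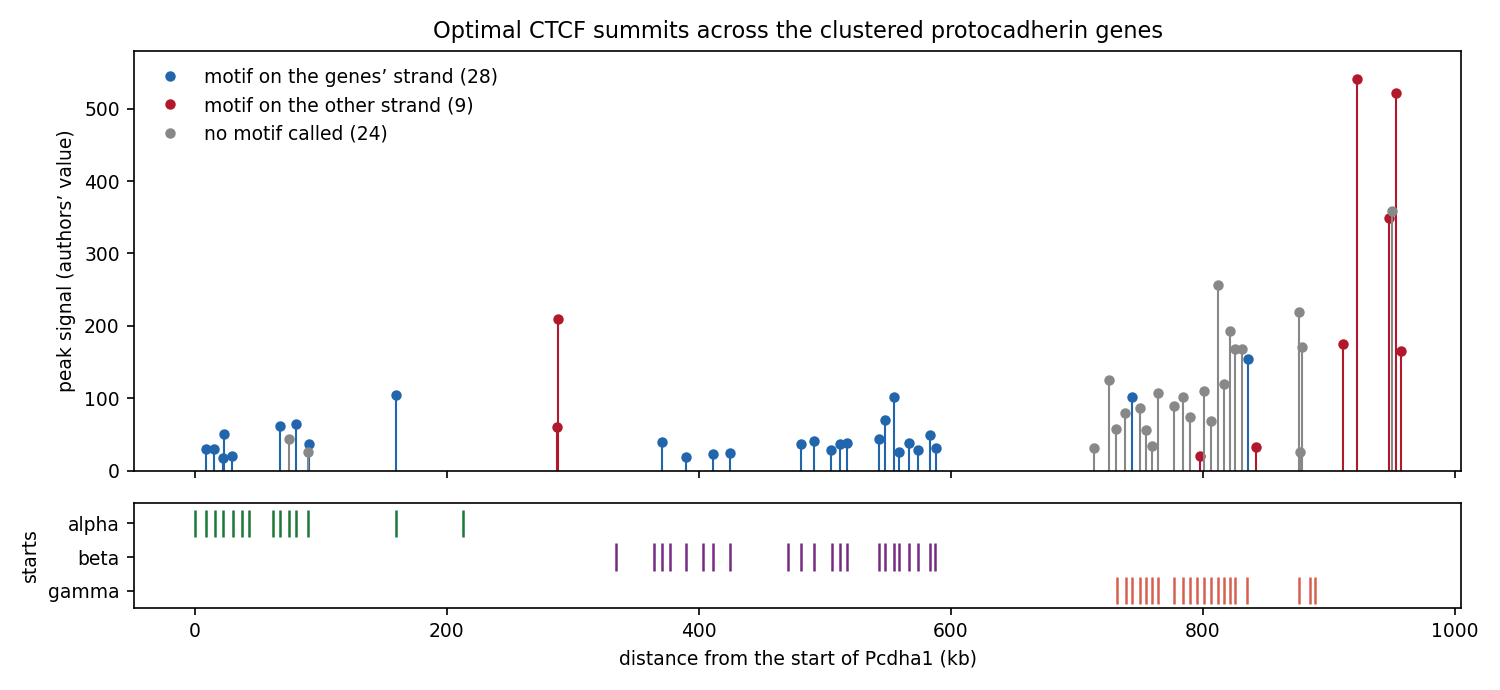
Signal of each of the 61 optimal CTCF summits (upper panel) against distance from the start of Pcdha1 in kb, coloured by the strand of the called motif, with the starts of the 57 members below. The 28 motifs on the genes' strand lie over the alpha, beta and gamma starts, and the 9 on the other strand lie mostly in the gap after the alpha genes and at or beyond the end of the gamma genes, where the signal reaches 541.

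Between the beta and gamma clusters 2 summits had no called motif. One with a signal of 31.4 lay at -52 bases from the start of Taf7, a subunit of the general transcription factor TFIID, and one with 125 lay at -6193 bases from the start of Pcdhga1. Inside the gamma array another summit without a motif, with a signal of 171, lay 2549 bases after the start of Pcdhgc3 and so outside the 2 kb window. The promoters of the 3 subclusters also differed in CpG content. The ratio of observed to expected CpG within 500 bases of the start had a median of 0.686 at alpha, 0.378 at beta and 0.594 at gamma genes. At bound members it was 0.557 and at unbound members 0.670, with overlapping ranges. DNA methylation was not measured here, and its part in the binding was not tested.

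Related genes outside the clusters gave a smaller share of bound starts than the clustered family as a whole. Of 12 non-clustered protocadherins 6 were bound, against 44.5% of all protein-coding genes. The bound ones had a median signal of 98.3 (29.7 to 523). The highest was at Pcdh8, where the summit lay 1463 bases after the start. Of 9 giant cadherins, the Celsr, Fat and Dchs genes, 6 were bound with a median of 73.4 (18.1 to 202). The Ugt1a genes, another array of alternative first exons spliced to shared exons, were bound in 2 of 9 cases, with signals of 36.1 and 43.1. Clustered protocadherins thus had a higher share of bound starts, with 44 of 57, than each of these lists, but a lower median signal, at 53.3, than the non-clustered protocadherins and the giant cadherins. The lists are small and no difference was tested.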

How the data were processed

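CTCF ChIP-seq peak lists on mm10 were used for replicate 1, replicate 2, both pooled, and the optimal and conservative IDR lists. The signal per peak and the summit offset are values the authors deposited. The deposited descriptions derive the pooled list from the alignments of both replicates plus another file whose role they do not state. For aligner, peak caller, IDR threshold and control, nothing is given in the sources used here. Peak-called lists hold no read counts, so the depth is unknown. No column was left unassigned.

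The summit was the peak start plus its offset. The start of a gene was that of its transcript with the longest coding sequence in GENCODE M21. The annotation gives Pcdha11 to 2 genes, and the one that RefSeq names Pcdha10 by its start codon is called so. The matrix was trained in 6 rounds with a pseudocount of 1 and tested on simulated data. Percentiles were computed within each list. Python 3.11.15, numpy 2.4.6, scipy 1.17.1, numba 0.67.0 and matplotlib 3.10.9 were used. Members, lists and the rule for named genes (the 3 strongest of each subcluster, all unbound members, the C-type genes, Pcdhb1, and those with several summits or an opposed motif) were chosen with earlier results of these data known. Other genes were named after their values were seen.

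Alternatives were other lists, windows, start rules and motif thresholds. To leave out a replicate, the 73465 strongest peaks of the other one were taken.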

Additional observations from a re-analysis of the deposited data

How the results depend on the processing

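Of 126 values under other settings, 101 stayed within 1.5 times the reported value and 25 moved further. With peaks above the median signal, 15 members were bound in all, 1 of them alpha and 1 beta, and 25 summits lay in the interval. In the pooled list 14 alpha genes were bound and the interval held 128 summits, with 46 motifs on the genes' strand and 16 on the other. At the motif score that 1% of flanks reach (15.3, above the median of 14.5 at peaks of other chromosomes), 2 members had a motif, both alpha, and in the interval 2 motifs lay on the genes' strand and 7 on the other, so the majority strand turned. Within 50 bases of the summit 1 gamma gene had a motif.

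With each replicate left out in turn, 42 to 45 members were bound, with 10 to 10 alpha, 14 to 16 beta and 18 to 19 gamma genes. The interval then held 58 to 61 summits, 25 to 27 members had a motif, and 26 to 29 motifs lay on the genes' strand and 8 to 9 on the other. With a replicate left out, the share of all protein-coding genes bound was not counted. The order of alpha and beta shares turned in the conservative list (64.3% alpha, 63.6% beta) and without replicate 2 (71.4% alpha, 63.6% beta). Gamma had the highest share in every setting except the pooled list, where alpha and gamma were both at 100%. No paired analysis was possible because there is 1 group. The cause of these shifts was not tested.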

Other observations

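Genes whose products are known to act on clustered protocadherin choice were mostly bound at their own starts. Of 13 such genes 11 had an optimal summit within 2 kb, against 44.5% of all protein-coding genes, with a median signal of 154 (42.2 to 495). The strongest were at Stag1 (495), Smc3 (361) and Stag2 (325), which encode cohesin subunits. The other cohesin subunit genes of the list, Rad21 (50.7) and Smc1a (59.4), lay below the median of 154. Nipbl, the cohesin loader, had 273, and Ctcf itself had 154. Rest, a repressor of neuronal genes, had 51.4, Dnmt3b, a DNA methyltransferase, had 53.0, and Smchd1, a chromatin silencing protein, had 42.2. Setdb1 and Wapl had none.

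For the tissue, starts of 4 intestinal epithelial genes were looked up. Vil1 (185) and Cdx1 (251) were bound and Cdx2 and Hnf4a were not. A CTCF peak does not measure expression, so these values neither support nor contradict the labelled tissue.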
